A study of Homo sapiens with 12 samples.

Results

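The comparison described here set BT474 cells that had become resistant to lapatinib, sampled at month 9, against the expanded persister cells of the same drug course, sampled at month 6. It used 6 of the 12 RNA-seq libraries of the series, 3 of long-term resistant cells (LR) and 3 of drug-tolerant expanded persisters (DTEP), and every gene with a value of 1 or more in at least 3 of these 6 libraries, which was 12285 of the 26485 genes measured. BT474 is an established human breast cancer line with amplified HER2, and lapatinib inhibits the kinases of HER2 and EGFR. The wild-type cells received 1 µM lapatinib every 3 days, so both groups were under the drug when they were harvested, and LR differed from DTEP in its time in culture. The other libraries were Control cells at day 0 (3 libraries), read as untreated from their titles although their treatment entry also names lapatinib, and drug-tolerant persisters (DTP) at day 9 (3 libraries). Libraries of a group were described by the study both as technical replicates and as plates kept in parallel, so the p-values below measure the spread between these libraries, which may be technical. LR and DTEP also differ in their time of harvest, and the month and the resistant state cannot be told apart.

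Persisters are cells that survive a drug without a resistance mutation having been selected, usually by leaving the cell cycle. Expanded persisters have begun to divide again under the drug, and resistant cells grow in it. The interferon response, which the strongest differences below touch, runs from type I interferon receptors through JAK kinases to a complex that holds STAT2 and IRF9, which binds a GAAANNGAA-like element and switches on antiviral genes. Genes of cell division are switched on later in the cycle, partly through FOXM1, MYBL2 and a promoter element with the letters TTTGAA.

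Values are normalised read counts, that is reads scaled to a common library size, and 1 read was worth 0.0412 to 0.0561 of them in the 6 libraries, which held 17784573 to 25030482 reads assigned to genes. Changes are differences of log2(value + 1), LR minus DTEP, which understate the change of genes at low values. By limma, 67 genes rose in LR (0.545% of the genes tested) and 98 fell (0.798%) at an adjusted p under 0.05. With a log2 change beyond 2 as well, 23 rose (0.187%) and 35 fell (0.285%), and the latter sets are called strongly changed below. The median change of all genes was -0.04. The 3 LR libraries lay outside the range of the 3 DTEP libraries in all 23 strongly raised genes. The same held for 34 of the 35 strongly lowered ones, ACKR3 being the exception. These genes were chosen by a test on the same libraries, so their lack of overlap was largely fixed by the choice. Over all genes the groups did not overlap in 1226 higher (9.98%) and 1444 lower (11.8%). The border of the stricter sets fell between RANBP3L at 2.01 and CA11 at 1.997 for higher genes, and between PPFIA4 at -2.01 and PLK1 at -1.996 for lower ones.

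These counts depended on which libraries entered. DTEP_3 stood apart from DTEP_1 and DTEP_2: 2608 genes differed by more than 1 on the log2 scale between DTEP_1 and DTEP_3, and 1474 between DTEP_2 and DTEP_3, against 423 between DTEP_1 and DTEP_2. By the same measure DTEP_3 differed from LR_1 in 380 genes, from LR_3 in 518 and from LR_2 in 1086. The library labelled DTEP_3 was thus nearer to each LR library than to the other libraries of its group, and most of all to LR_1 and LR_3. Whether its label is as intended could not be settled here. Without DTEP_3, limma gave 1686 higher (13.7%) and 2293 lower genes (18.7%), of which 92 (0.749%) and 132 (1.07%) were strongly changed, and each of the 67, 98, 23 and 35 genes was again in its set. Without DTEP_1, or without DTEP_2, 0 genes passed by limma, with 836 and 585 genes at an unadjusted p under 0.05. With all libraries 2637 were under it, and a share of 0.05 of the 12285 genes would be if no gene differed. A fit on the 6 libraries alone also gave 0 by limma and 0 by edgeR, with 2148 and 2114 genes at an unadjusted p under 0.05. In every one of these fits all 58 strongly changed genes kept their direction. This was largely fixed in advance and says nothing of how firm the changes are. The groups did not overlap in 23 raised and 34 lowered genes, and the limma fit on 6 libraries has the same group means.

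The genes with the largest rise were antiviral genes of the interferon response. IFI6, an antiviral and survival protein on chr1:27666064-27672192, measured 1.53, 0.989 and 1.01 in DTEP_1, DTEP_2 and DTEP_3 and 239, 86.0 and 27.6 in LR_1, LR_2 and LR_3. The Control mean was 1.43 ± 0.225 (SD, n = 3), so the 3 DTEP libraries lay near the level of day 0 and the 3 LR libraries far above both. The log2 change of IFI6 was 5.28 (SE 0.71, adjusted p = 0.0112 by limma), the largest rise of the 12285 genes. IFIT1, which binds viral RNA that lacks the host cap, had 1.05, 1.32 and 3.14 in DTEP and 306, 84.5 and 30.7 in LR, a log2 change of 5.12 (SE 0.75, adjusted p = 0.0112 by limma). For both genes LR_1 was the highest library and LR_3 the lowest of LR, with no overlap between the groups.

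**Figure D1:**
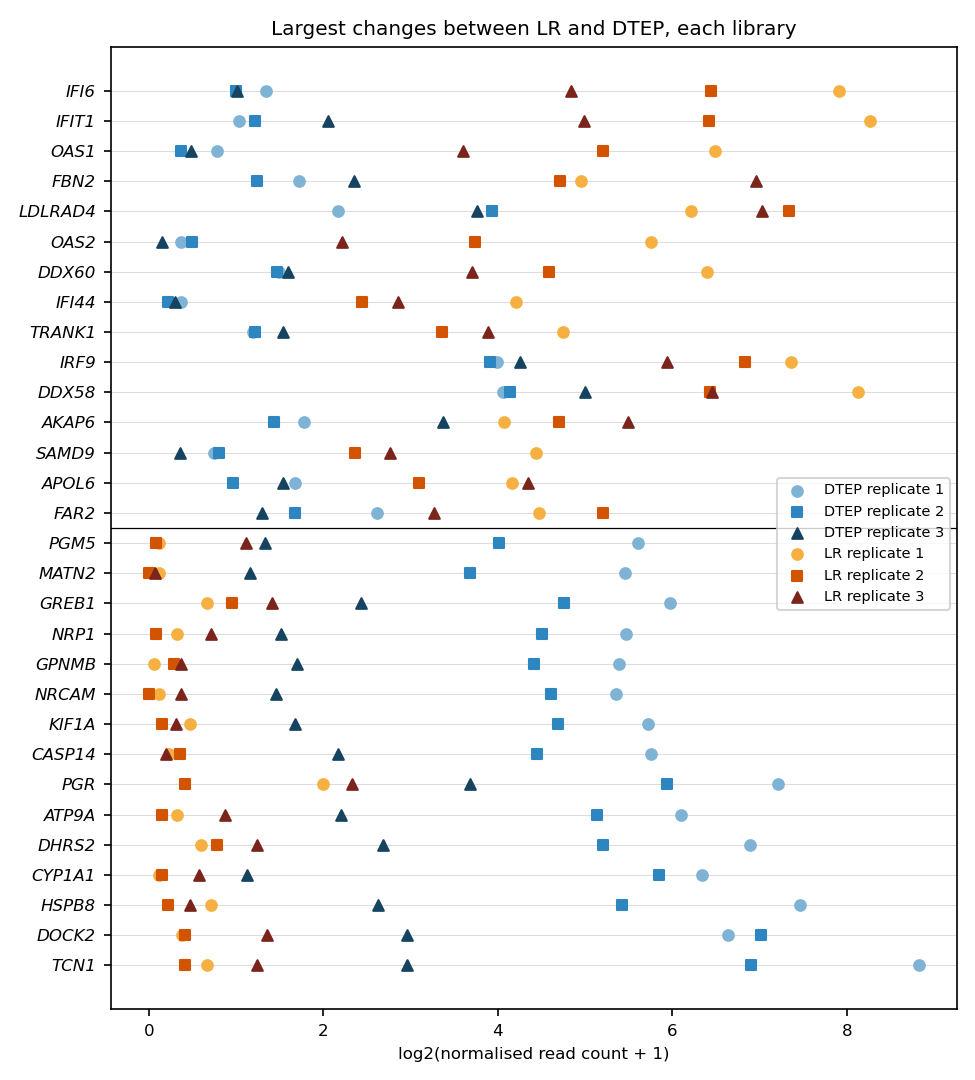
The 15 genes with the largest rise and the 15 with the largest fall between LR and DTEP, with log2(normalised read count + 1) on the x axis and 1 point for each library. IFI6 and IFIT1 are at the low end in all 3 DTEP libraries and higher in all 3 LR libraries, whereas among the lowered genes DTEP replicate 3 lies between the other DTEP libraries and LR.

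The promoters of 4 strongly raised genes are shown because they carry the element of the interferon response. They run from 250 bases before to 50 bases after the RefSeq start site (GRCh38.p14, 5′ to 3′ on the gene's strand): IFI6 at chr1:27672143-27672442 on the minus strand, IFIT1 at chr10:89392373-89392672 on the plus strand, DDX60 at chr4:168318703-168319002 on the minus strand and IFI44 at chr1:78649539-78649838 on the plus strand. Capitals mark matches to GAAANNGAA on either strand.
IFI6: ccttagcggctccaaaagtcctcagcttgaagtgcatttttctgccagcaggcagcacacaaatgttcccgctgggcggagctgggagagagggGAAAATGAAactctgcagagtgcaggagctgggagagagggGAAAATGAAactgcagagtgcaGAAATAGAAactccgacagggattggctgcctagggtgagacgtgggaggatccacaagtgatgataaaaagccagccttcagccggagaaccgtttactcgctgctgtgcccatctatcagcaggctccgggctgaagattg
IFIT1: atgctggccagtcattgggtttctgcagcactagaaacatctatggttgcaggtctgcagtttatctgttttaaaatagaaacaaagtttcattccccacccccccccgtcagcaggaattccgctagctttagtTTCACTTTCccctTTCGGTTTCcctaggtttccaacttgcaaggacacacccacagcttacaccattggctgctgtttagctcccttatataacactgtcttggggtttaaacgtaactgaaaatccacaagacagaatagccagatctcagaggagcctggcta
DDX60: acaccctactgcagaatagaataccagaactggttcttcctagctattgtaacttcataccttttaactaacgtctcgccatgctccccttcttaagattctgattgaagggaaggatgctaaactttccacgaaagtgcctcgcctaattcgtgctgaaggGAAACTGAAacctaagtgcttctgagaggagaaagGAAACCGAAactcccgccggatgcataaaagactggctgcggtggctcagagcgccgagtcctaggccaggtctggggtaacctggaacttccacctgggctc
IFI44: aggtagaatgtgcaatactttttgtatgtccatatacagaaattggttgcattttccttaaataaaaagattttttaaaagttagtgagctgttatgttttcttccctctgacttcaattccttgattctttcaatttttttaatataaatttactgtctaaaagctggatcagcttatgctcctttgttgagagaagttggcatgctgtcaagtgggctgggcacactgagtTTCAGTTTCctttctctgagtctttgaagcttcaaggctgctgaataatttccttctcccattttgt

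IFI6 had 3 such matches, IFIT1 and DDX60 had 2 and IFI44 had 1. Over all tested genes with a promoter in the table, 6.22% of 9653 held a match. Among the strongly raised genes 8 of 20 did (40.0%), among all raised genes 10 of 48 (20.8%), and among the lowered genes 2 of 73 (2.74%). Of the raised genes outside the interferon list described next, 4 of 39 held one (10.3%). A match describes the letters of the promoter and shows no binding.

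A list of 47 interferon-stimulated genes had 36 members tested. Of these, 35 were higher and 1 lower in LR in sign, 12 rose past the test and 0 fell, and in 30 the groups did not overlap, against 0.545% of all genes that rose and 9.98% whose LR libraries lay wholly above DTEP. The median change of the list was 1.76, beside -0.04 for all genes. A member of 36 was tested only because it reached the minimum in LR in 7 cases, and these had to be higher: the other 29 had a median of 1.39, with 28 higher in sign and 7 raised past the test. Without DTEP_3 the list median was 1.74, and 30 members passed higher and 1 lower, against 13.7% and 18.7% of all genes. Another 11 members did not reach the minimum, and the highest of them in LR was IFI44L, also named after its values were seen, with 0.0478, 0 and 0 in DTEP and 5.58, 0.996 and 2.91 in LR. The LR mean was above the DTEP mean in 7 of these 11 and below it in 4. Among the 4 was MX2, an antiviral GTPase named after its values were seen, with 36.1 to 39.0 in Control, 3.97, 1.65 and 0.393 in DTEP and 0.507, 0.664 and 0.0484 in LR. IFITM3, which blocks viral entry and was named in the same way, had 1.72, 0.535 and 0 in DTEP and 0.127, 0 and 0.0484 in LR.

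By role, the sensors of viral RNA in the list were higher in 4 of 4, and 3 rose past the test. RIG-I (DDX58) measured 15.7, 16.6 and 31.0 in DTEP and 280, 85.1 and 87.0 in LR, a log2 change of 2.61 (adjusted p = 0.0217 by limma). Of the 5 transcription factors only IRF9 passed, the DNA-binding partner of STAT2: it had 14.9, 14 and 18.0 in DTEP and 163, 113 and 60.6 in LR, a log2 change of 2.66 (SE 0.35, adjusted p = 0.0112 by limma). Its partner STAT2, named here after its values were seen, had 86.3, 98.0 and 192 in DTEP and 191, 161 and 178 in LR, so that DTEP_3 already lay at the level of the highest LR library.

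Among the 27 antiviral effectors tested, 8 rose past the test. Of these 8, OAS1, OAS2, IFI44 and SAMD9 stayed under 1 in every DTEP library. They were tested through LR alone and had to be higher. The oligoadenylate synthetase genes OAS1, OAS3 and OAS2, which make the signal that activates RNase L, are neighbours on chr12:112906962-113011723. They were the only run of 3 or more adjacent tested genes that passed in the same direction. For OAS1 and OAS2 that direction was set by the filter. OAS1 had 0.718, 0.288 and 0.393 in DTEP and 89.1, 36.0 and 11.1 in LR, a log2 change of 4.56 (adjusted p = 0.0112 by limma). OAS2 went from 0.287, 0.412 and 0.112 to 53.2, 12.3 and 3.63, a change of 3.57 (adjusted p = 0.0352 by limma). OAS3, named after its values were seen, was the most abundant of the 3, with 30.1, 45.7 and 51.0 in DTEP and 418, 148 and 150 in LR. Each of the 3 was highest in LR_1 and each had its 3 DTEP libraries together at the low end.

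IFI44 and SAMD9, further antiviral effectors, rose by 2.88 and 2.55 on the log2 scale. DDX60, a helicase that assists RIG-I and is not on the list, measured 1.82, 1.77 and 2.02 in DTEP and 83.5, 23.0 and 12 in LR (log2 change 3.37, adjusted p = 0.0285 by limma). Its Control mean was 10.3, so DTEP lay below day 0 in this gene. BST2, an abundant list member, which tethers budding virus, overlapped between the groups, with 154 to 282 in DTEP and 197 to 343 in LR.

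The rise differed among the LR libraries and hardly among the DTEP libraries. Averaged over the 36 genes, after centring each on its mean of the 6 libraries, the log2 level was -0.92, -0.95 and -0.84 in DTEP_1, DTEP_2 and DTEP_3 and 1.69, 0.70 and 0.33 in LR_1, LR_2 and LR_3. LR_1 was the highest LR library in 31 of 36 genes. Set against Control, the median gene of the list stood at -0.09, -0.07 and -0.14 in DTEP and at 2.75, 1.15 and 1.08 in LR. The medians near 0 in DTEP stood over members that went both ways, since the DTEP mean was above the Control mean in 16 of the 36. BST2, for example, had a Control mean of 0.111 and was far above it in all DTEP libraries.

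**Figure D2:**
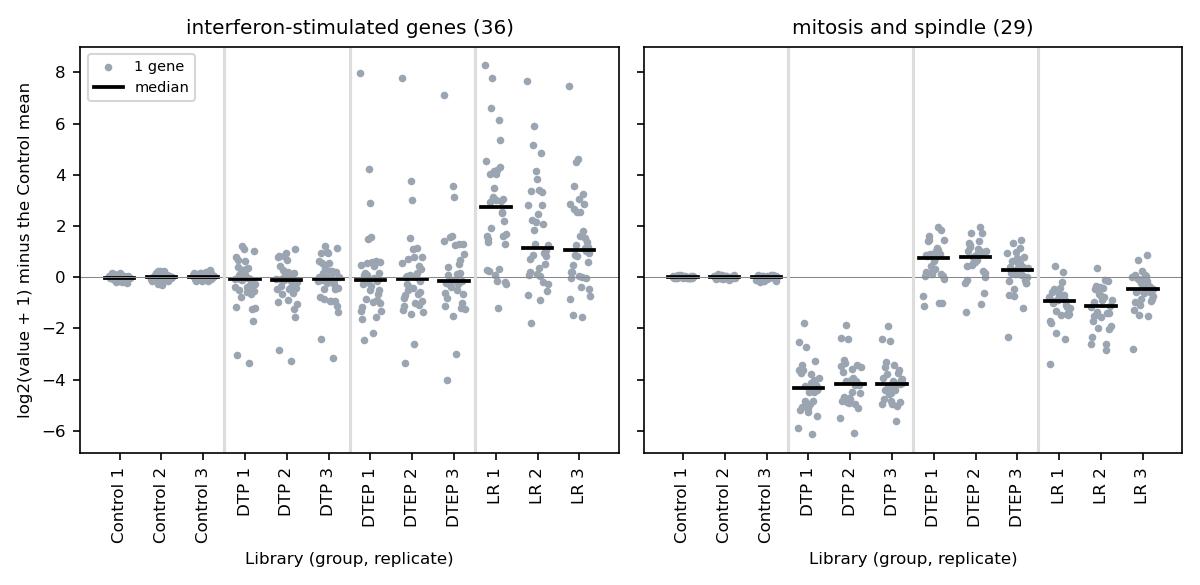
Change from the Control mean, as log2(value + 1), of the interferon-stimulated genes (left, 36 genes) and of genes of mitosis and the spindle (right, 29 genes) in all 12 libraries; 1 dot is 1 gene and the bar is the median. The interferon medians are near 0 in all libraries but LR, at 2.75, 1.15 and 1.08, and the mitosis medians are lowest in DTP, above 0 in DTEP and at -0.95, -1.13 and -0.45 in LR.

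No interferon gene could be tested: all 8 ligands listed stayed below the minimum. Of 8 receptors and receptor kinases, 0 passed by limma (2 were higher and 1 lower without overlap, and 2 passed higher and 1 lower without DTEP_3). Over all genes 9.98% lay wholly above DTEP and 11.8% wholly below. Without DTEP_3, 13.7% of all genes passed higher and 18.7% lower. JAK1, which relays the receptor signal, had 95.4, 79.1 and 111 in DTEP and 138, 124 and 162 in LR (log2 change 0.57, adjusted p = 0.182 by limma). Of 10 tested genes for cytosolic sensing of nucleic acids 0 passed by limma, and their median was -0.01, a sign that changed under 6 of the alternatives. Its most abundant members were ADAR, the RNA-editing enzyme, with a change of 0.83 and no overlap, and MAVS, the adaptor of RIG-I, with 0.48. Genes of antigen presentation by MHC class I moved less than the interferon list. Of 18, 11 were higher in sign and 8 without overlap, against 9.98% of all genes, and the median was 0.33. TAPBP, which loads peptides, was the only member that rose past the test. It had 56.6, 67.0 and 92.4 in DTEP and 167, 140 and 117 in LR (adjusted p = 0.0483 by limma, lost in 16 of 25 alternatives). Of the 5 presenting molecules tested, 2 were higher, both without overlap, and 3 were lower in sign, 1 of them without overlap. HLA-C and HLA-E, named after their values were seen, were among those lower, with changes of -0.04 and -0.33. Of 8 genes for loading and transport of peptides, 6 were higher and 2 lower in sign, 4 were higher without overlap, and the median was 0.91.

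Other genes rose strongly outside the interferon list. LDLRAD4, an inhibitor of TGF-beta signalling, had 3.49, 14.3 and 12.6 in DTEP and 73.0, 161 and 130 in LR (log2 change 3.57, SE 0.52, adjusted p = 0.0112 by limma). FBN2, an extracellular microfibril protein, had 2.30, 1.36 and 4.10 in DTEP and 30.0, 25.3 and 123 in LR (3.77, adjusted p = 0.0124 by limma), and here LR_3 was the highest library. LR was above DTEP in every pair of libraries for both genes. TMPRSS2, a membrane protease named after its values were seen, rose past the test by 1.26, short of the limit of 2 for a strong change. ABCC5, an efflux pump for nucleotide analogues, rose from 138, 123 and 306 to 951, 1630 and 465 (2.36, adjusted p = 0.0216 by limma). Of the other strongly raised genes, TRANK1, APOL6, AKAP6 and FAR2 changed by 2.68, 2.48, 2.56 and 2.45.

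Of the 23 strongly raised genes, LR_1 was the highest LR library in 13, LR_2 in 6 and LR_3 in 4. In 19 of them the LR libraries lay above all 9 others of the series. Their place above DTEP was largely fixed by the choice, and the share over all genes was not counted. DTEP_3 was the highest DTEP library in 12 of the 23. The genes were chosen by a test that counted DTEP_3 as DTEP, so its distance from LR in them is partly set by the choice.

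The strongly lowered genes were, for the most part, genes that Control cells expressed and DTEP_1 and DTEP_2 still held in part. TCN1, a vitamin B12 carrier of secretory epithelium on chr11:59852808-59866487, had a Control mean of 3040 ± 80.7 (SD, n = 3), then 452, 119 and 6.74 in DTEP_1, DTEP_2 and DTEP_3 and 0.591, 0.332 and 1.36 in LR. Its log2 change was -5.45 (SE 0.83, adjusted p = 0.0116 by limma), the largest fall. PGR, the progesterone receptor and a target of the estrogen receptor, went from 147, 60.4 and 11.8 in DTEP to 3.00, 0.332 and 4.02 in LR, a log2 change of -4.03 (SE 0.70, adjusted p = 0.0170 by limma). KIF1A, a motor of vesicle transport, had 51.6, 24.8 and 2.19 in DTEP and 0.380, 0.111 and 0.242 in LR, with a Control mean of 746 (log2 change -3.72, adjusted p = 0.0124 by limma). In each of these genes the order was DTEP_1, DTEP_2, DTEP_3 and then LR.

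That order was the rule. In all 35 strongly lowered genes DTEP_3 was the lowest DTEP library, in 32 DTEP_1 was the highest, in 34 DTEP_3 lay between the other DTEP libraries and LR, and in 33 it was nearer the LR mean than the mean of DTEP_1 and DTEP_2. The test counted DTEP_3 as DTEP, so its place above LR is partly set by the choice. Where no LR library reached 1, as in KIF1A, a gene was tested only if DTEP_3 reached 1 and so lay above LR. Among all genes tested 45 were of this kind. Without genes tested through 1 group only, 75 of the 98 lowered genes remained. In 29 of the 35 strongly lowered genes the LR libraries were below all 9 others. Their place below DTEP was largely fixed by the choice, and the share over all genes was not counted. The Control mean was above the DTEP mean in 27 of the 35. In bulk RNA a smaller share of cells that express a gene and less RNA per cell cannot be told apart, and both would give these values.

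To express this loss on 1 scale, the genes of the whole table with a Control mean of at least 100 and no LR library above 1% of it were taken, a set chosen after the values were seen, in which the LR values are fixed by the choice and the DTEP values are not. It held 38 genes, 21 of them tested and 16 strongly lowered. As a percentage of the Control mean, the median gene stood at 9.82 in DTEP_1 (quartiles 6.33 and 14.1), 4.06 in DTEP_2 (2.56 and 4.97) and 0.511 in DTEP_3 (0.321 and 0.699), and at 0.0473, 0.0314 and 0.106 in the LR libraries. In DTP the medians were 63.0 to 74.2. The percentages ranged from 0.154 to 115 in DTEP_1. Near the medians, KIF1A stood at 6.92, 3.33 and 0.294 in the DTEP libraries, ATP9A, a membrane lipid flippase, at 9.57, 4.86 and 0.509, NRCAM, a neuronal adhesion protein, at 9.41, 5.52 and 0.41, and IKZF3, a lymphoid transcription factor whose gene lies close to ERBB2 on chromosome 17, at 10.1, 3.87 and 0.573. DTEP_1 exceeded DTEP_2 and DTEP_2 exceeded DTEP_3 in 35 of the 38. HSPB8, a small heat shock protein, was the highest in DTEP_1, at 115, 27.3 and 3.37. At the low end BMP7, LRP2, MUC6, CEACAM6, PADI2 and DPYSL5, chosen after their values were seen, were already at 0.154, 0.295, 0.497, 0.636, 1.17 and 1.35 in DTEP_1, and LRP2 was highest of the DTEP libraries in DTEP_3.

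**Figure D3:**
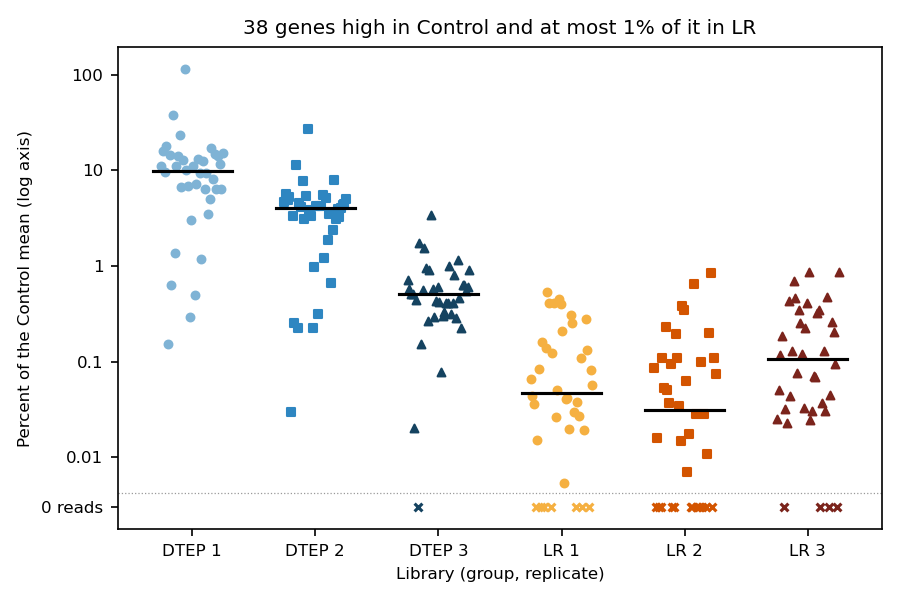
Level of 38 genes as a percentage of their Control mean (log axis) in the 6 libraries; 1 point is 1 gene, a cross is a gene without a read and the bar is the median. The medians fall from 9.82 in DTEP replicate 1 through 4.06 and 0.511 in DTEP replicates 2 and 3, and the LR values were bounded at 1 by the choice of the genes.

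Genes of the estrogen response were part of this set. ESR1, the estrogen receptor gene, named after its values were seen, had a value of 1 or more in only 2 of the 6 libraries and was not tested: it measured 16.7, 6.88 and 0.842 in DTEP and 0.211, 0.0553 and 0.194 in LR, and stood at 11.1, 4.57 and 0.559 percent of Control in DTEP. Of 17 tested genes of the estrogen list 4 fell past the test, namely PGR, GREB1, SLC7A2 and CA12, and 0 rose, against 0.798% and 0.545% of all genes. GREB1, an estrogen receptor cofactor, had 61.8, 26 and 4.38 in DTEP and 0.591, 0.941 and 1.65 in LR (log2 change -3.37, adjusted p = 0.0124 by limma). The list median was -0.60. In this list 1 member reached the minimum in DTEP alone, and of the other 16, 3 fell past the test, with a median of -0.42. GATA3 and XBP1, luminal regulators and the most abundant members, differed by 0.09 and -0.23 with overlapping groups. TFF1, a secreted estrogen-induced peptide named after its values were seen, had a change of -2.65 that missed the threshold (adjusted p = 0.0707 by limma), with LR_2 at 2.99 above DTEP_3 at 2.25.

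In the other 8 strongly lowered genes the Control mean was below the DTEP mean. DOCK2, an activator of the GTPase Rac known from blood cells, had a Control mean of 0.098, then 98.6, 129 and 6.79 in DTEP and 0.296, 0.332 and 1.55 in LR (log2 change -4.83, SE 0.67, adjusted p = 0.0112 by limma). CYP1A1, a detoxifying enzyme induced through the aryl hydrocarbon receptor, had 79.8, 56.8 and 1.18 in DTEP and 0.0845, 0.111 and 0.484 in LR (-4.16, adjusted p = 0.0246 by limma), with a Control mean of 6.97. CASP14, a protease of skin differentiation, went from 53.0, 20.9 and 3.48 to 0.169, 0.277 and 0.145. The 3 genes were high in DTEP_1 and DTEP_2 and, in DTEP_3, stood between these and LR. For CYP1A1 and CASP14, with every LR library under 1, a place of DTEP_3 above LR was needed for the gene to be tested.

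Of the 39 gene lists examined, that of mitosis held the most members that fell. All 29 listed genes of mitosis and the spindle were lower in LR in sign, 18 fell past the test and 27 did not overlap, with a median of -1.39, against 0.798% of all genes that fell and 11.8% that lay wholly below. PLK1, the kinase of mitotic entry, had 198, 185 and 95.4 in DTEP and 25.4, 48.9 and 41.5 in LR (log2 change -1.996, SE 0.32, adjusted p = 0.0127 by limma). CCNB1, the mitotic cyclin, had 306, 258 and 128 in DTEP and 56.5, 82.4 and 78.2 in LR (-1.58, adjusted p = 0.0150 by limma). CDC20, which activates the anaphase-promoting complex, had 188, 141 and 61.1 in DTEP and 21.5, 38.3 and 36.1 in LR (-1.89, adjusted p = 0.0200 by limma). FOXM1, the transcription factor of this group, had 290, 308 and 234 in DTEP and 112, 63.9 and 154 in LR (-1.40, adjusted p = 0.0488 by limma), a call that was lost in 18 of 25 alternatives. For all 4 genes every DTEP library was above every LR library, and for PLK1, CCNB1 and CDC20 DTEP_3 was the lowest of DTEP.

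Without DTEP_3 the median of the mitosis list was -1.55 and 27 of 29 passed lower, against 18.7% of all genes. DTEP_3 kept to the DTEP side: in the 27 genes in which DTEP_1 and DTEP_2 lay apart from LR, it reached the LR range in 0, lay between in 21 and was at or past DTEP_1 or DTEP_2 in 6. Relative to Control the median member was at 0.73, 0.81 and 0.28 in DTEP and -0.95, -1.13 and -0.45 in LR. BIRC5, an inhibitor of apoptosis that also serves in mitosis, fell by 1.79. MKI67, the proliferation antigen, had 463, 604 and 622 in DTEP and 255, 207 and 413 in LR, without overlap, but missed the threshold (log2 change -0.997, adjusted p = 0.120 by limma).

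The promoters of 3 lowered mitotic genes are given because the letters TTTGAA (the core of the cell cycle homology region) and CCAAT recur in this group. They cover the same window of GRCh38.p14: PLK1 at chr16:23678639-23678938, CDC20 at chr1:43358731-43359030 and CCNB2, a further mitotic cyclin chosen after its values were seen, at chr15:59104896-59105195, all on the plus strand. Capitals mark TTTGAA and CCAAT on either strand, and these 2 motifs share no overlap in their letters here.
PLK1: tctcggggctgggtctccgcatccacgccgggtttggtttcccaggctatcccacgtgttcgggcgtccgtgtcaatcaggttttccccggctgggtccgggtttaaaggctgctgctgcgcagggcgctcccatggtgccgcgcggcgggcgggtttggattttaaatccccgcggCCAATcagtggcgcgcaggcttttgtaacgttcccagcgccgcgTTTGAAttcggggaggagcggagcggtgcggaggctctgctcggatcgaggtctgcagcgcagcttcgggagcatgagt
CDC20: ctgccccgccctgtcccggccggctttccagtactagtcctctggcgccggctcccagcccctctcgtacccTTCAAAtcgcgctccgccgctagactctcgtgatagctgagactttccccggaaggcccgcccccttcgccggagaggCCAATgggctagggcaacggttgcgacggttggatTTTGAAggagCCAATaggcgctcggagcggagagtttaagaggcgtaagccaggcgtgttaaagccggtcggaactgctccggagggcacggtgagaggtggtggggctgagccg
CCNB2: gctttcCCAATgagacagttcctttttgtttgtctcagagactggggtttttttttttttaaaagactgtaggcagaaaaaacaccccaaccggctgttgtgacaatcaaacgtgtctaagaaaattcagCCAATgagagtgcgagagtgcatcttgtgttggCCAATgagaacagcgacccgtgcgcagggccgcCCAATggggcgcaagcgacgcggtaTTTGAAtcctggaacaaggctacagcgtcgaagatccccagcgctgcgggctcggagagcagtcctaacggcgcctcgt

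TTTGAA was found in 9.39% of the 9653 promoters of tested genes, in 27 of 73 lowered genes (37.0%) and in 16 of 24 genes of the mitosis list (66.7%). Among the strongly lowered genes 3 of 26 held it (11.5%), near the share of all. For CCAAT the share was 37.6% of all and 52.1% of the lowered genes, and 18 of 24 on the mitosis list held it. Of the strongly lowered genes 7 of 26 did (26.9%), below the share of all. The E2F letters TTTGGCGC or TTTCCCGC were found in 3.91% of all promoters, in 1 of 24 of the mitosis list (4.17%) and in 14 of 24 of the S phase list (58.3%). CCNB2 fell by 1.41 on the log2 scale.

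Genes of DNA replication differed from those of mitosis in their spread among LR libraries. All 29 were lower in LR in sign, with a median of -1.48, but 0 passed by limma and 15 did not overlap, against 11.8% of all genes that lay wholly below. Without DTEP_3, 24 passed, against 18.7% of all genes. LR_2 was the lowest LR library in 29 of 29 and DTEP_3 was within or past the LR range in 13 of the 28 in which the other DTEP libraries lay apart from LR. E2F1, the transcription factor of S phase entry, had 184, 219 and 76.4 in DTEP and 54.8, 13.2 and 70.1 in LR (log2 change -1.94, adjusted p = 0.121 by limma). CDC6, which loads the replicative helicase, had 61.0, 73.4 and 26.4 in DTEP and 14.7, 4.21 and 24.6 in LR (-1.97, adjusted p = 0.1 by limma). MCM7, a helicase subunit and 1 of the 2 most abundant members, had 531, 499 and 214 in DTEP and 163, 58.6 and 255 in LR, with LR_3 above DTEP_3. CCNE2, the cyclin of the start of S phase, had a change of -0.77 (adjusted p = 0.251 by limma).

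Genes of growth and energy metabolism were higher in DTEP_1 and DTEP_2 than in LR, and the place of DTEP_3 differed from list to list. In the list of MYC and ribosome biogenesis 22 of 26 were lower in LR, with a median of -0.74. Of the 26, 0 passed by limma (20 lower without DTEP_3, against 18.7% of all genes). DTEP_3 was at or past an LR library in 21 of the 23 genes in which DTEP_1 and DTEP_2 lay apart from LR. NCL, the nucleolar protein nucleolin, had 1260, 1070 and 484 in DTEP and 449, 435 and 568 in LR. The centred level of this list was 0.81 and 0.58 in DTEP_1 and DTEP_2, -0.42 in DTEP_3 and -0.41, -0.47 and -0.10 in LR. For oxidative phosphorylation all 24 genes were lower in sign, with a median of -0.59. By limma 0 passed (20 lower without DTEP_3, against 18.7% of all genes). In 11 of the 24 all DTEP libraries were above all LR libraries, against 11.8% of all genes. DTEP_1 and DTEP_2 lay apart from LR in 23 of these genes. In these 23, DTEP_3 was at or past an LR library in 13 and between in 10. For sterol and fatty acid synthesis DTEP_3 was at or past LR in 14 of 14 such genes, and for redox defence in 12 of 13. Over all genes, DTEP_1 and DTEP_2 lay apart from LR in 7377; DTEP_3 was at or past an LR library in 4742 of them, between in 1960 and at or past DTEP_1 or DTEP_2 in 675.

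**Figure D4:**
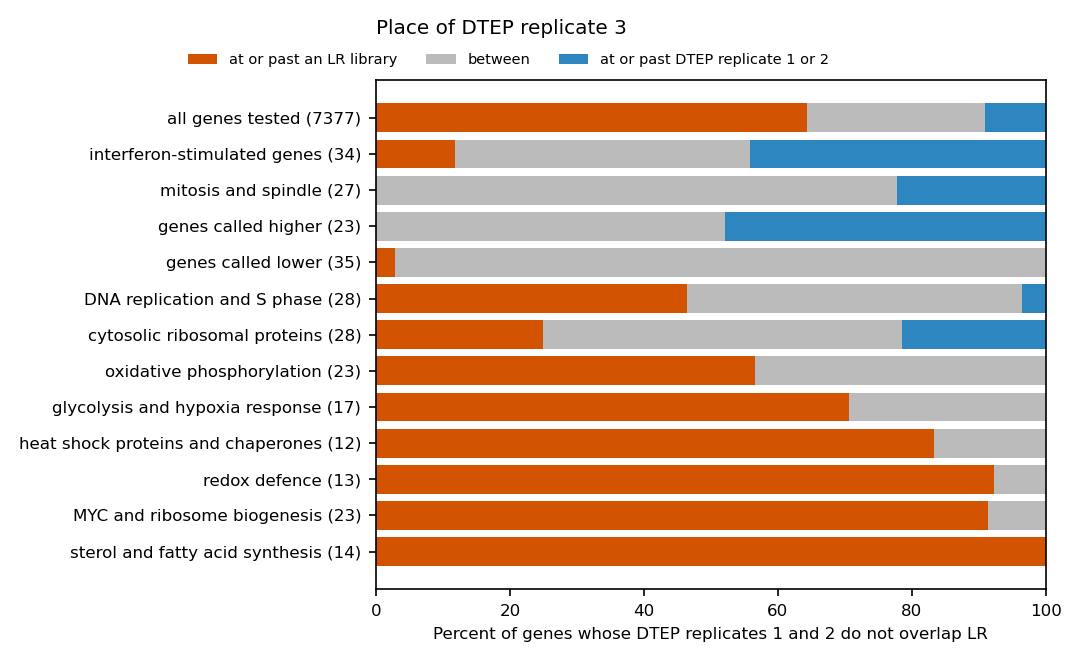
For each gene list, the genes in which DTEP replicates 1 and 2 did not overlap LR (number in brackets), split by percentage into those with DTEP replicate 3 at or past an LR library, between, or at or past DTEP replicate 1 or 2. For the MYC list 21 of 23 genes are in the first class, and for the mitosis list 0 of 27.

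The only member of the glycolysis list that passed was GAPDH, which fell from 5620, 3630 and 2270 to 1440, 1270 and 1750 (log2 change -1.29, adjusted p = 0.0464 by limma, lost in 14 of 25 alternatives). ALDOA, another abundant glycolytic enzyme, had 4320, 2950 and 1440 in DTEP and 1360, 1610 and 1290 in LR, with DTEP_3 inside the LR range. Of the 38 ribosomal protein genes 37 were lower in sign, with a median of -0.58. By limma 0 passed (24 lower without DTEP_3, against 18.7% of all genes). DTEP_1 was the highest DTEP library in 37 of these 38, and DTEP_3 was at or past an LR library in 7 of the 28 in which DTEP_1 and DTEP_2 lay apart from LR.

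**Figure D5:**
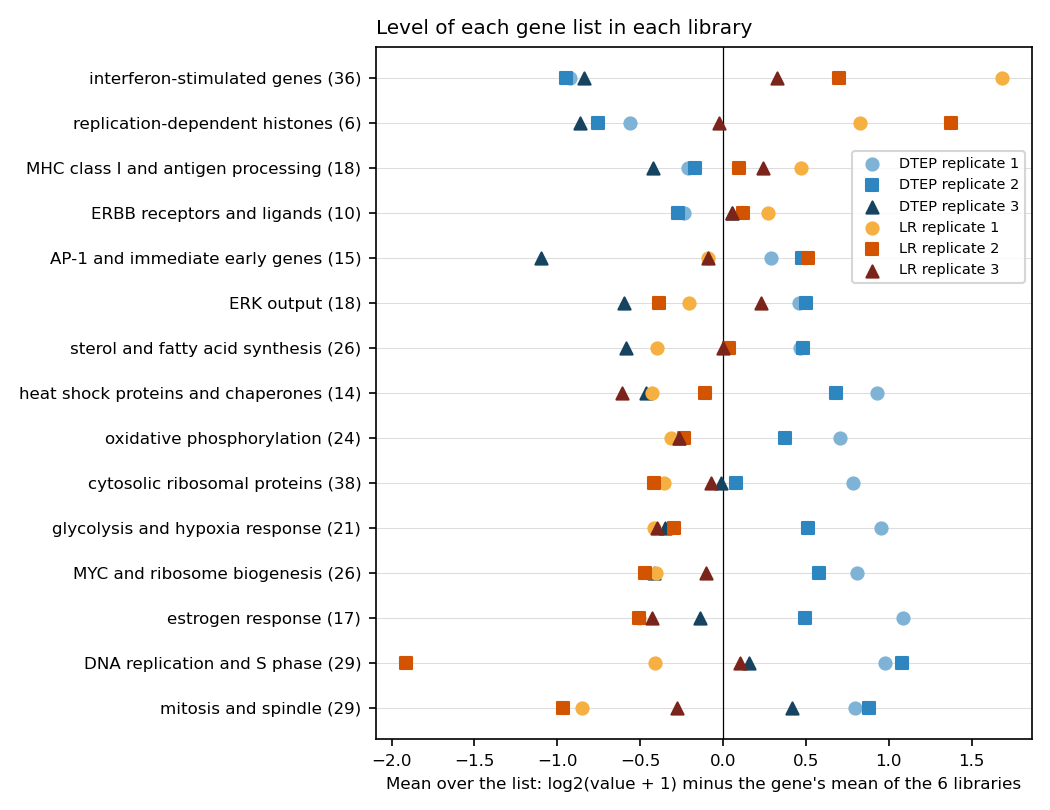
Mean level of 15 gene lists in each of the 6 libraries, as log2(value + 1) minus each gene's mean of the 6 libraries; the number of genes is in brackets. The interferon list sets the 3 DTEP libraries (-0.92, -0.95 and -0.84) apart from LR, and the MYC list sets DTEP replicates 1 and 2 (0.81 and 0.58) apart from the other 4.

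Of 10 tested ERBB receptors, ligands and regulators 0 passed by limma (2 higher and 1 lower without DTEP_3, against 13.7% and 18.7% of all genes). ERBB2, which encodes HER2, had 2100, 1240 and 1530 in DTEP and 1560, 1900 and 1870 in LR, a log2 change of 0.15 (SE 0.23, adjusted p = 0.723 by limma). All 6 libraries lay below its Control mean of 6530. ERBB3, its kinase-poor partner, had 471, 511 and 1210 in DTEP and 1110, 1030 and 1130 in LR, with DTEP_3 the highest of all (0.72, adjusted p = 0.151 by limma). Without DTEP_3 the change of ERBB3 was 1.15 (adjusted p = 0.000265 by limma). ERBB4 spread widest, with 29.4, 53.3 and 160 in DTEP and 214, 123 and 18.3 in LR (0.31, adjusted p = 0.851 by limma). Of their ligands NRG3 had a change of 0.65 (adjusted p = 0.364 by limma). EGFR and the ligand genes NRG1, NRG2 and NRG4 stayed below the minimum; EGFR, at 18.9 to 22.4 in Control, had 0.478, 0.0824 and 1.35 in DTEP and 0.338, 0.111 and 0.921 in LR. Of 16 tested neighbours of ERBB2 on chromosome 17 IKZF3 alone passed, and it fell by 3.20 on the log2 scale. IKZF3 reached the minimum in DTEP alone, and 0 of the other 15 passed lower. The LR mean was above the Control mean in 1 of the 16 neighbours and below it in 15, and the DTEP mean was above it in 1.

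Of the 5 phosphatases that the study followed 0 passed by limma (3 lower without DTEP_3, against 18.7% of all genes). DUSP6, which switches off ERK and is itself induced by it, had 170, 211 and 30.5 in DTEP and 39.7, 30.2 and 68.2 in LR (log2 change -1.23, SE 0.54, adjusted p = 0.212 by limma). DTEP_3 thus lay within the LR range and the other 2 DTEP libraries above it. Without DTEP_3 the change of DUSP6 was -2.10 (adjusted p = 0.00105 by limma), a strong fall. CDC25A and CDC25C, which activate cyclin-dependent kinases, had changes of -1.32 and -1.24 (adjusted p = 0.133 and 0.127 by limma), SYNJ1, a lipid phosphatase, 0.54, and DUSP1, a further MAP kinase phosphatase, 1.01. Of the 18 tested genes of ERK output 0 passed by limma (1 higher and 7 lower without DTEP_3, against 13.7% and 18.7% of all genes). EGR1, an immediate early gene, had 227, 256 and 13.4 in DTEP and 172, 240 and 169 in LR, so DTEP_3 was the lowest of the 6.

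The label of the cells was set against marker genes. Of 12 identity markers of BT474 11 were tested, and ESR1 was the one not tested. By limma 0 passed (1 higher and 2 lower without DTEP_3, against 13.7% and 18.7% of all genes). This test compares LR with DTEP and cannot show whether either group kept the levels of Control. The LR mean was above the Control mean in 5 of the 11 and below it in 6. ERBB2 had a mean of 6530 in Control, 1630 in DTEP and 1770 in LR. ESR1 had 149 to 153 in Control and 0.0553 to 0.211 in LR. Of 22 markers of fibroblasts, immune cells, endothelium and basal or myoepithelial cells, 17 stayed under 1 in all 6 libraries, 6 of these without a read, and COL1A1, TP63, CD68, LYZ and OXTR reached 1. Their summed level was 94.1 to 159 in DTEP, 120 to 199 in LR and 72.3 to 81.7 in Control, mostly from COL1A1; without it the ranges were 14.3 to 38.1, 21.6 to 68.5 and 20.0 to 21.4. The part of these markers in the results above was not tested.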

How the data were processed

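The study sequenced stranded poly(A) mRNA libraries (300 ng of total RNA each) from 12 BT474 samples and, per its methods, counted reads on RefSeq gene models of hg38 with Rsubread at its default settings; the processing notes of the submitters also name bcl2fastq and edgeR. The authors deposited 1 table of normalised signal values, which equalled read counts divided by a TMM-scaled library size, times a constant. Dividing by the value of 1 read gave whole reads for 199680 of 199680 values above 0 (largest distance from a whole number 1.22e-09), and these recovered reads were used for the alternative count tests. Of 26485 rows, 1016 had no gene symbol. Strand use in counting was not given beyond the defaults, so overlapping and antisense genes, and near-identical copies such as histone genes, are uncertain.

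Groups and replicate numbers came from the sample titles, and no label gave a batch. Values of at least 1 in at least 3 of the 6 DTEP and LR libraries were required. log2(value + 1) was fitted with limma 3.58.1 (R 4.3.3) over all 12 libraries and 4 group means, with a variance weight for each group (Control 5.52, DTP 1.11, DTEP 0.268, LR 0.607), since the median SD was 0.0703, 0.167, 0.333 and 0.208, and with a trended prior. p-values were two-sided and adjusted by Benjamini-Hochberg over 12285 genes, and the study's limit of 2 on the log2 scale marked strong changes. The fit was also run on simulated data, in which all libraries of a group varied alike. No simulated library stood apart from its group as DTEP_3 did, so that run cannot speak to its effect. Alternatives used edgeR 4.0.16 and DESeq2 1.42.0, other pseudocounts (0.5 and 0.1), filters, weights and scaling, and each library left out. No 2 of the 6 DTEP and LR libraries were alike within sampling noise.

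The comparison, the 39 gene lists and the genes to name were chosen with earlier results of these data known. Named genes were the 15 with the largest change in each direction among the strongly changed genes without overlap, up to 2 passing and the 2 most abundant members of each list, and genes the study followed; others are said to be chosen after their values were seen, apart from those named only as members of a count or at its border. Promoters are from RefSeq (GRCh38.p14), 250 bases before to 50 after the start, and matched 9653 of the genes tested. Coordinates of genes are from the same annotation and were found for 11925. Some genes that the rule names are not reported here. Figures were drawn with matplotlib 3.10.9.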

Additional observations from a re-analysis of the deposited data

How the results depend on the processing

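Numbers below give genes raised, lowered, strongly raised and strongly lowered, where the reported values were 67, 98, 23 and 35. Counts moved by over 1.5 times under these settings: 32, 47, 12 and 18 without a filter; 418 and 543 passing without weights; 3043, 3668, 74 and 113 with a weight for each library; 350, 536, 56 and 72 with edgeR on 12 libraries; 956, 1480, 63 and 86 with DESeq2; and 0, 0, 0 and 0 on 6 libraries alone, by limma and by edgeR. Pseudocounts of 0.5 and 0.1, no trend, a mean of at least 5 and median-of-ratios scaling stayed within 1.5 times. Of the strongly changed genes, 22 and 35 were also strongly changed by edgeR on 12 libraries and 22 and 30 by DESeq2. Leaving out 1 library gave 0 to 1686, 0 to 2293, 0 to 92 and 0 to 132. Without LR_1 the counts were 16, 8, 13 and 3, without LR_2 42, 63, 18 and 32 and without LR_3 153, 312, 46 and 87; without a Control library 39 to 47 genes rose. Without DTEP_1 or DTEP_2 the smallest adjusted p was 0.0785 or 0.272 by limma. The causes were not tested. A limit of 1 in place of 2 on the log2 scale gave 63 and 94. Leaving out 1 library moved ERBB2 between -0.023 (without DTEP_2) and 0.355, and ERBB4 between -0.397 (without LR_1, and also below 0 without DTEP_1) and 1.34.

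Replicate numbers did not pair the libraries: deviations from the group means correlated at -0.265, 0.0152 and -0.23 between same-numbered DTEP and LR libraries. A replicate block gave 50, 61, 22 and 24. The median of the interferon list stayed between 1.24 and 2.28 over the alternatives, that of mitosis between -1.61 and -1.26 and that of DNA replication between -1.91 and -0.91. None of these 3 changed sign. Some medians near 0 did, as those for cytosolic nucleic acid sensing (6 alternatives), lysosome and autophagy (2) and apoptosis regulators (3). With 3 libraries a group and 1 DTEP library apart, the precision is set by the spread between libraries and not by depth, except for genes near 1 read.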

Other observations

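Replication-dependent histone genes were higher in LR in sign in 6 of 6 tested members, with a median change of 1.43. HIST2H2BE, a polyadenylated H2B gene, passed, with 43.9, 58.2 and 31.8 in DTEP and 258, 377 and 116 in LR (log2 change 2.35, adjusted p = 0.0166 by limma). Groups did not overlap in 4 of the 6, against 9.98% of all genes that lay wholly above, and LR_2, the library with the lowest values of the DNA replication genes, was the highest for HIST2H2BE. HIST1H2BK, the other abundant member, had 65.2, 47.9 and 47.1 in DTEP and 106, 121 and 76.9 in LR and missed the threshold (adjusted p = 0.0774 by limma). Copies of histone genes are near identical, and reads could be split among them.

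SOX9, a transcription factor of progenitor cells, had 12.7, 10.3 and 18.0 in DTEP and 50.8, 46.5 and 27.2 in LR (log2 change 1.52, adjusted p = 0.0346 by limma). It was the only 1 of 5 tested genes of a list of stem-like and tolerance markers that passed. Without DTEP_3, 3 passed higher and 2 lower, against 13.7% and 18.7% of all genes. CD24, another member, had 506, 690 and 338 in DTEP and 365, 266 and 187 in LR (-0.90, adjusted p = 0.142 by limma). Of the 6 members below the minimum the LR mean was below the DTEP mean in 4, among them CD44, named after its values were seen, with 9.76, 4.94 and 0.281 in DTEP and 0.0845, 0 and 0.0484 in LR. Of 14 tested heat shock genes all were lower in sign, with a median of -0.45, and HSPB8 alone passed, with 176, 41.8 and 5.16 in DTEP and 0.634, 0.166 and 0.388 in LR (-4.70, adjusted p = 0.0112 by limma). HSPB8 reached the minimum in DTEP alone, and 0 of the other 13 passed.

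Genes of the integrated stress and unfolded protein responses had a median change of 0.23. Of 18, 0 passed by limma (6 higher and 3 lower without DTEP_3, against 13.7% and 18.7% of all genes). The median was -0.50 for 15 inhibitors and cyclins of G1, 0.38 for integrins over 8 genes, 0.08 for 20 genes of lysosome and autophagy (-0.004 without DTEP_3) and -0.17 for 16 epithelial and mesenchymal markers. Of these, 0 passed by limma with all libraries. Without DTEP_3, 7, 3, 1 and 7 passed in either direction, where 13.7% of all genes passed higher and 18.7% lower. By role, the median was -0.27 for 10 G1 inhibitors and -0.61 for 5 G1 cyclins and kinases. It was -0.29 for 13 epithelial markers and 0.63 for the 3 of 12 mesenchymal markers that were tested. Of the 16, 2 reached the minimum in LR alone and had to be higher.

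Outside the OAS cluster, the pairs of neighbouring tested genes that passed in the same direction were DDX60 with DDX60L, and IRF9 with REC8, all 4 raised, and BPIFB2 with BPIFB1, SLC7A2 with MTUS1, CDK1 with RHOBTB1, and NCAPD2 with GAPDH, all 8 lowered. These genes were named after their values were seen.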
